A study of Mus musculus with 4 samples.

Results

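The genes described here encode the receptors for the colony-stimulating factors and their closest relatives, together with the growth factor that CSF1R binds. They are Csf1r (Gene ID 12978), Csf1 (12977), Csf2ra (12982), Csf2rb (12983), Csf2rb2 (12984), Csf3r (12986), Flt3 (14255) and Kit (16590). They were taken by symbol, and all 8 were found among the 17008 genes with at least 1 read. Macrophages had been sorted from marrow and spleen of C57BL/6J mice, 6 to 8 weeks old per the labels. Normal mice were sampled at day 0. Mice with T-ALL, a leukaemia of T cell precursors, had received GFP+ leukaemia cells without irradiation and were sampled at day 21. The study asks how macrophages of the leukaemia differ from those of homeostasis. Each of the 4 combinations of organ and condition has 1 library, so differences could not be checked against replicates, and no test across libraries was made. The sources used here do not give the number of mice behind a library, the markers of the sort or the lesion that drove the leukaemia.

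Colony-stimulating factors keep myeloid cells alive and direct their maturation. CSF1R binds CSF1 and IL-34 and sustains monocytes and most tissue macrophages, and together with KIT, FLT3 and the PDGF receptors it forms a family of receptor tyrosine kinases. The receptor for GM-CSF joins the ligand-specific chain CSF2RA to the common beta chain CSF2RB, which has no kinase of its own and signals through JAK2 and STAT5. The mouse carries a further beta chain, CSF2RB2, which serves IL-3. CSF3R, the receptor for G-CSF, is best known from neutrophils, FLT3 from progenitors and dendritic cells, and KIT from stem cells, progenitors and mast cells.

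Levels are given as CPM, the reads of a gene scaled to the size of its library. Levels of different genes are compared only as RPKM, which also divides by gene length. The library sizes after scaling ran from 8939756 to 9856658 reads, and 3 reads, the upper limit that a count of 0 allows, were worth 0.304 to 0.336 CPM. The size rule for calling a gene higher or lower was a 2-fold difference on log2(CPM + 1). A gene under 10 CPM in both libraries of a pair was not measured in that pair. Such log2 differences understate the change of low genes. Folds are ratios of CPM, and the pair of values after a fold is its exact 95% binomial interval. Intervals and limits cover counting error only, since each group has 1 library. Any PCR copies of a molecule counted as separate reads would make them too narrow.

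RNA of several cell types was present in all 4 libraries, so the label of macrophages holds only in part. The 16 macrophage markers summed to 3856 CPM in normal bone marrow, 9518 CPM in T-ALL bone marrow, 8046 CPM in normal spleen and 4295 CPM in T-ALL spleen, and none was at 0 reads. Such sums weigh the most abundant markers most and do not rank the libraries by macrophage content. Between the T-ALL organs the median log2 difference of these markers was 0.06. Between the normal organs 14 were higher in spleen and 2, Lyz2 and Itgam, lower (16.1% and 14.0% of all measured genes). The 12 markers of neutrophil precursors summed to 35654 and 18245 CPM in normal and T-ALL bone marrow, against 385 and 184 CPM in the spleens. The 12 T cell markers ran from 187 CPM in normal bone marrow to 3328 CPM in T-ALL spleen. Sex-linked transcripts also differed between libraries. Ddx3y, on the Y chromosome, had 0 reads in both normal libraries and 874 and 532 reads in T-ALL bone marrow and spleen. Xist, which female cells express, stood at 861 CPM in normal marrow, 0.644 CPM in T-ALL marrow, 849 CPM in normal spleen and 416 CPM in T-ALL spleen, so T-ALL spleen held reads of both. In such bulk samples, fewer cells of a type and less RNA per cell cannot be told apart, and the part of these cell types and of sex in the results below was not tested.

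The common beta chain and its IL-3-specific copy are neighbouring genes and nearly the same in sequence, which bears on every value given for them. Their coding sequences of 2688 and 2634 bases (GENCODE M21, GRCm38) matched at 2503 of 2628 aligned bases, an identity of 95.2%. The start of the longest stretch without a difference, which runs over 242 bases, is shown first, because a read within it fits both genes. The stretch of 90 bases with the most differences is shown second, with its 16 differing bases in capitals, because reads there can be assigned.
Csf2rb, coding bases 2083 to 2202: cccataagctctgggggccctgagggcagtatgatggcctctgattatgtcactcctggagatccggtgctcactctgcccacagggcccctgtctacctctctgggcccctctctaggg
Csf2rb2, coding bases 2083 to 2202: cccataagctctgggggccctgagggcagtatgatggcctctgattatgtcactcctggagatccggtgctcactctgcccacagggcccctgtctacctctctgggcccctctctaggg
Csf2rb, coding bases 308 to 397: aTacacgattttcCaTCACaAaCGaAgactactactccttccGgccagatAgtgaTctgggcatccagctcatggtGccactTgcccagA
Csf2rb2, coding bases 311 to 400: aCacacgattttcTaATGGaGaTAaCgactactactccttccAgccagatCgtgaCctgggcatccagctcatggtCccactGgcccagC

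Of all windows of 50 bases along the Csf2rb transcript, 18.4% also occurred in that of Csf2rb2, and for windows of 100 bases the share was 6.96%. The deposited counts hold uniquely mapped reads, and the sources used here do not give the read length. Reads covered 90.4% to 91.7% of the length of Csf2rb in every library, although its reads ran from 723 to 2409. Csf2rb2 was covered over 68.0% to 89.1%. Among genes without such a copy, Csf2ra was covered over 99.6% to 99.8% with 579 to 2349 reads, and Csf3r over 81.1% to 93.9% with 396 to 3310 reads, so incomplete coverage was not limited to the beta chains. The levels of both beta chains are therefore given as uncertain, and their sum is given with the settings tried.

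Csf1r spanned the widest range of the 8 genes. It stood at 133 CPM in normal bone marrow (1313 reads), 947 CPM in T-ALL bone marrow (8823 reads), 2415 CPM in normal spleen (21591 reads) and 1421 CPM in T-ALL spleen (13129 reads). Normal bone marrow was thus the low library, and both spleens lay above both marrows. In bone marrow Csf1r was 7.11-fold higher in T-ALL (6.71 to 7.54), a log2 difference of 2.82, while in spleen it was 1.70-fold lower (1.66 to 1.74), which is under the 2-fold rule. The normal spleen library exceeded normal bone marrow by 18.1-fold (17.1 to 19.2), whereas between the T-ALL organs the gap was 1.5-fold (1.46 to 1.54).

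**Figure D1:**
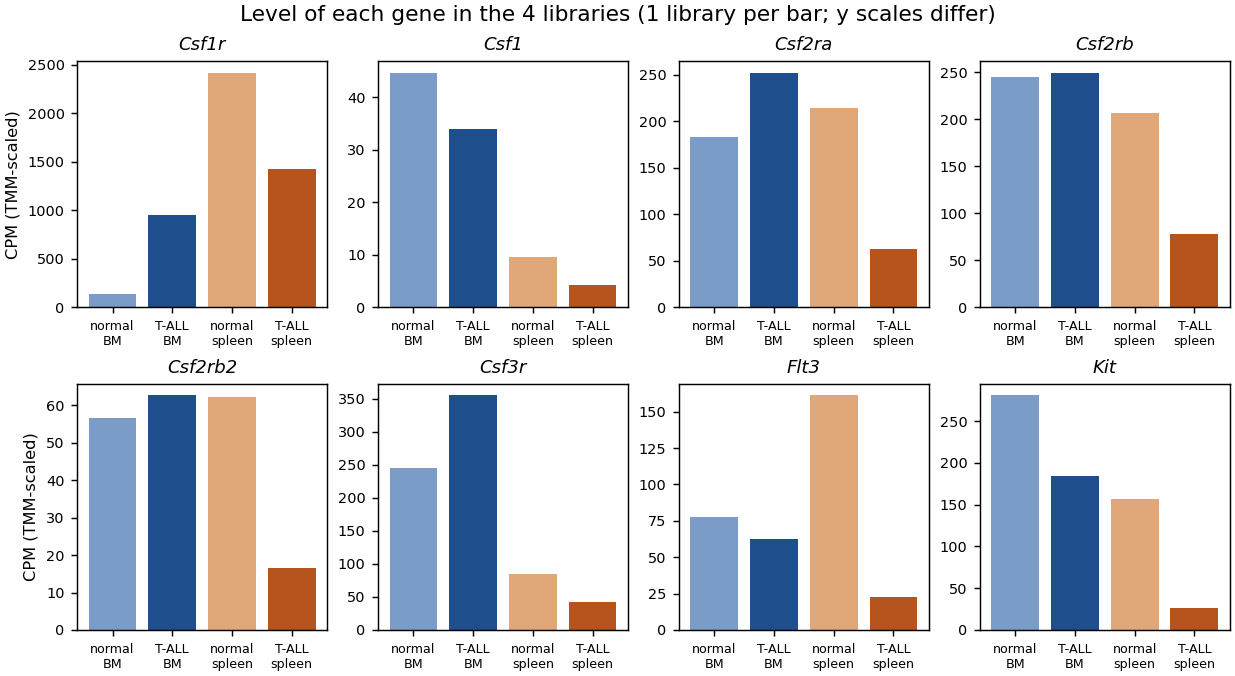
CPM of each gene (y axis, from 0, a scale of its own in each panel) in the 4 libraries, 1 bar per library. Csf1r is lowest in normal bone marrow, at 133 CPM, whereas the other 7 genes are all lowest in T-ALL spleen.

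Markers of macrophages differed in the same direction as Csf1r in 3 of the 4 comparisons. Of the 16 markers, a list without Csf1r itself, 15 were higher and 0 lower in T-ALL bone marrow, where 8.01% of all measured genes were higher and 1.03% lower, with a median log2 difference of 2.79 beside the 2.82 of Csf1r. In spleen 0 were higher and 8 lower in T-ALL (10.3% and 11.0% of all measured genes), with a median of -0.86 beside -0.76 for Csf1r. Between the normal organs 14 were higher and 2 lower in spleen (16.1% and 14.0% of all measured genes), and their median of 3.86 compares with 4.17 for Csf1r. Between the T-ALL organs 1 was higher in spleen, Mertk, and 4 were lower (5.44% and 11.0% of all measured genes), with a median of 0.06 beside 0.59 for Csf1r. Of 12 monocyte markers, 9 were higher and 0 lower in T-ALL marrow (median 2.52), while between the T-ALL organs 8 were lower in spleen and 0 higher (median -2.34). In T-ALL marrow the T cell markers (9 of 9 measured) and the erythroid markers (5 of 7) were also higher.

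Profiles were compared with those of 10311 other genes with 10 CPM or more in a library. Predicted and clone-named genes and the 8 genes themselves were then left out of the ranking. Of the genes ranked, Emr1, the gene of the macrophage antigen F4/80, had the profile closest to that of Csf1r. Likeness was the root mean square difference of log2(CPM + 1) after centring each gene over the 4 libraries, and it was 0.05 for Emr1. Emr1 stood at 39.5, 303, 698 and 429.5 CPM in normal marrow, T-ALL marrow, normal spleen and T-ALL spleen. Pira2, of the paired immunoglobulin-like receptors, and Trpm2, a calcium-permeable channel, followed at 0.07 and 0.10. Only 4 libraries stand behind these values, and 13 genes lay within 0.2 of Csf1r. Counts of genes within 0.2, here and below, include those left out of the ranking.

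**Figure D2:**
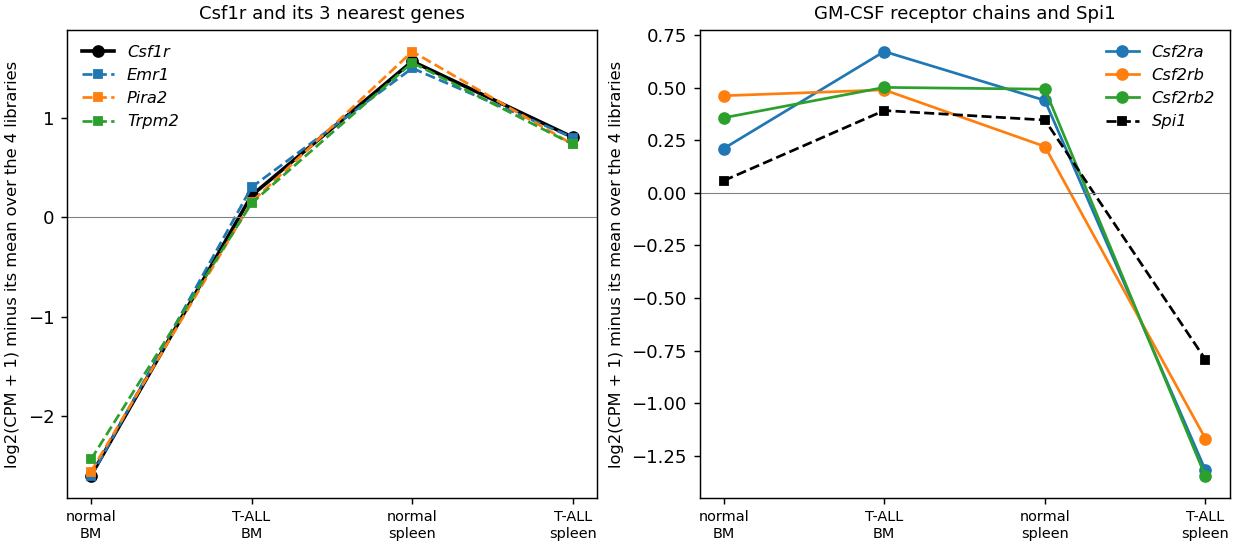
Centred log2(CPM + 1) (y axis) in the 4 libraries (x axis). Csf1r and the 3 genes ranked nearest to it are on the left, and the 3 GM-CSF and IL-3 receptor chains with Spi1 on the right. The left profiles nearly overlie each other, and on the right all 4 genes are lowest in T-ALL spleen.

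Csf1, the ligand of that receptor, ran the other way between the organs. It stood at 44.6 CPM in normal bone marrow (440 reads), 33.9 CPM in T-ALL bone marrow (316 reads), 9.51 CPM in normal spleen (85 reads) and 4.33 CPM in T-ALL spleen (40 reads). Both marrows lay above both spleens, and Csf1 was 4.69-fold lower in normal spleen than in normal marrow (3.71 to 5.99) and 7.83-fold lower between the T-ALL organs (5.62 to 11.2). T-ALL against normal gave 1.32-fold lower values in marrow (1.14 to 1.53) and 2.20-fold lower values in spleen (1.49 to 3.28). The spleen pair stayed below 10 CPM and was not counted as measured. The genes with the nearest profiles were Wwc2, Pde5a and Cox6b2, at differences of 0.05 to 0.06, and 33 genes lay within 0.2.

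Both chains of the GM-CSF receptor and the IL-3 beta chain shared a profile, with T-ALL spleen alone at the bottom. Csf2ra was at 183, 252, 214 and 62.7 CPM in normal marrow, T-ALL marrow, normal spleen and T-ALL spleen. In the same order Csf2rb was at 244, 249, 207 and 78.3 CPM. Csf2rb2 was at 56.6, 62.7, 62.3 and 16.7 CPM. The first 3 libraries differed by at most 1.38-fold in each gene, and T-ALL spleen lay below all of them.

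In spleen Csf2ra was 3.42-fold lower in T-ALL (3.12 to 3.76), Csf2rb 2.64-fold lower (2.42 to 2.88) and Csf2rb2 3.74-fold lower (3.12 to 4.50). In bone marrow Csf2ra was 1.38-fold higher (1.30 to 1.47), under the 2-fold rule. The marrow intervals of Csf2rb, 0.963 to 1.08, and of Csf2rb2, 0.984 to 1.25, included a ratio of 1. The smallest root mean square differences between any pair of the 8 genes were those of Csf2ra with Csf2rb2, 0.12, of Csf2rb with Csf2rb2, 0.17, and of Csf2ra with Csf2rb, 0.20. Outside the 8 genes, Ebi3, a subunit of IL-27 and IL-35, was nearest to Csf2ra at 0.11, Zfp768 to Csf2rb at 0.04 and Parp8 to Csf2rb2 at 0.05. Such profiles were common, with 28, 77 and 24 genes within 0.2 of Csf2ra, Csf2rb and Csf2rb2. These counts include any others of the 8 genes that lie that near.

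Per length, the specific chain exceeded the common beta chain in all 4 libraries. The RPKM ratio of Csf2ra to Csf2rb was 1.93 (1.82 to 2.05) in normal marrow, 2.61 (2.47 to 2.77) in T-ALL marrow, 2.68 (2.51 to 2.86) in normal spleen and 2.07 (1.85 to 2.31) in T-ALL spleen. Csf2rb in turn exceeded Csf2rb2 by 3.21-fold (2.92 to 3.53) in normal spleen and by up to 4.54-fold (3.81 to 5.44) in T-ALL spleen. Reads shared by the beta chains are missing from both counts, so these ratios are those of unique reads.

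Csf3r separated the organs. It stood at 245 CPM in normal bone marrow (2413 reads), 355 CPM in T-ALL bone marrow (3310 reads), 84.8 CPM in normal spleen (758 reads) and 42.9 CPM in T-ALL spleen (396 reads). Both marrows lay above both spleens, by 2.89-fold (2.66 to 3.14) between the normal and by 8.29-fold (7.46 to 9.22) between the T-ALL libraries. T-ALL was 1.45-fold higher in marrow (1.38 to 1.53) and 1.98-fold lower in spleen (1.75 to 2.24), both under the rule. Adam15, a membrane protease, Ifnlr1, a chain of the receptor for type III interferons, and Fam129b had the nearest profiles, at 0.12 to 0.14.

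Markers of mature neutrophils were also higher in marrow, with a median log2 difference of -3.37 in normal spleen beside -1.52 for Csf3r. Their 11 genes summed to 15758 and 14100 CPM in normal and T-ALL marrow, against 393 and 257 CPM in the spleens, with Ly6g without a line in any table. S100a9, a calcium-binding protein abundant in neutrophils, went from 9468 CPM in normal marrow to 133 CPM in normal spleen. In T-ALL marrow 3 of the 9 measured markers were higher and 0 lower (8.01% and 1.03% of all measured genes). Their median log2 difference was 0.27 beside 0.54 for Csf3r. Markers of neutrophil precursors went the other way in that pair, with 9 of 12 lower, 0 higher and a median of -1.61. In T-ALL spleen 3 of 4 measured mature markers were lower and 0 higher (11.0% and 10.3% of all measured genes). Their median was -1.74 beside -0.97 for Csf3r. Of 6 measured precursor markers 4 were lower and 1 higher there, with a median of -1.41.

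Flt3 was highest in normal spleen and lowest in T-ALL spleen. It was at 77.7 CPM in normal marrow, 62.5 CPM in T-ALL marrow, 161 CPM in normal spleen and 22.4 CPM in T-ALL spleen. In spleen the leukaemic library was 7.19-fold lower (6.21 to 8.36), and in marrow it was 1.24-fold lower (1.12 to 1.39). Normal spleen was 2.07-fold above normal marrow (1.90 to 2.27), while T-ALL spleen was 2.79-fold below T-ALL marrow (2.37 to 3.28). Arhgap6 was the only gene within 0.2 of its profile, at 0.07.

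Markers of dendritic cells were lower together with Flt3 in spleen, as were those of other cell types. Of 12 dendritic cell markers, 8 were lower and 0 higher in T-ALL spleen, with a median log2 difference of -1.57 beside -2.79 for Flt3. Over all measured genes, 11.0% were lower and 10.3% higher. In the same pair 5 of 6 NK cell markers (median -1.28), 4 of 8 B cell markers (median -1.01) and 4 of 11 monocyte markers (median -0.63) were lower. Of the monocyte markers 2 were higher, and of the NK and B cell markers 0. The dendritic cell sum went from 1445 to 782 CPM, and Zbtb46, a transcription factor of conventional dendritic cells, went from 45.4 to 8.12 CPM. In the marrows the list summed to 289 and 467 CPM, and Zbtb46 stood at 2.13 and 3.0 CPM. In normal marrow Flt3 stood beside little Zbtb46 and beside 246 CPM of Cd34, a surface protein of progenitors, which was at 4.59 CPM in normal spleen. Of the 12 dendritic cell markers, 10 were higher and 0 lower in normal spleen than in normal marrow (16.1% and 14.0% of all measured genes). Siglech and Bst2 differed by under 2-fold in that pair. Which cells the Flt3 reads came from was not tested.

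Kit was highest in normal marrow. It stood at 281 CPM there (2767 reads), 184 CPM in T-ALL marrow (1719 reads), 157 CPM in normal spleen (1402 reads) and 26.0 CPM in T-ALL spleen (240 reads). T-ALL was lower in both organs, by 1.52-fold in marrow (1.43 to 1.62) and by 6.04-fold in spleen (5.26 to 6.95). Normal spleen lay 1.79-fold below normal marrow (1.68 to 1.91), and T-ALL spleen 7.10-fold below T-ALL marrow (6.20 to 8.16). No gene lay within 0.2 of the Kit profile, and the nearest of those ranked, the kinesin Kif17, differed by 0.22.

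Markers of mast cells and basophils differed far more between organs than Kit, with a median log2 difference of -5.05 in normal spleen beside -0.84 for Kit. Their 10 genes summed to 2980 and 1508 CPM in normal and T-ALL marrow, against 46.9 and 32.3 CPM in the spleens. Mcpt4 had reads in normal marrow only. Cpa3, a protease of mast cells and basophils, was at 284, 184, 5.82 and 5.63 CPM in normal marrow, T-ALL marrow, normal spleen and T-ALL spleen. Progenitor markers likewise summed to 142 CPM in normal spleen, against 1367 CPM in normal marrow. Kit at 157 CPM in normal spleen therefore stood beside low levels of both lists. In T-ALL spleen the progenitor sum was 584 CPM, of which Myb made up 287 CPM and Sox4 149.5 CPM, while Kit was at its lowest.

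T-ALL spleen held the lowest value of every gene but Csf1r. In spleen 7 of the 8 genes were measured, 5 were lower in T-ALL and 0 higher, against 11.0% of all measured genes called lower and 10.3% called higher. The median log2 difference of all 8 was -1.57, against -0.08 over all measured genes. In bone marrow 1 of 8 genes, Csf1r, was higher and 0 were lower, where 8.01% of measured genes were higher and 1.03% lower, and the medians were 0.09 and -0.04. Marrow and spleen pairs share no library, but the organ comparisons below reuse the same 4 libraries.

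**Figure D3:**
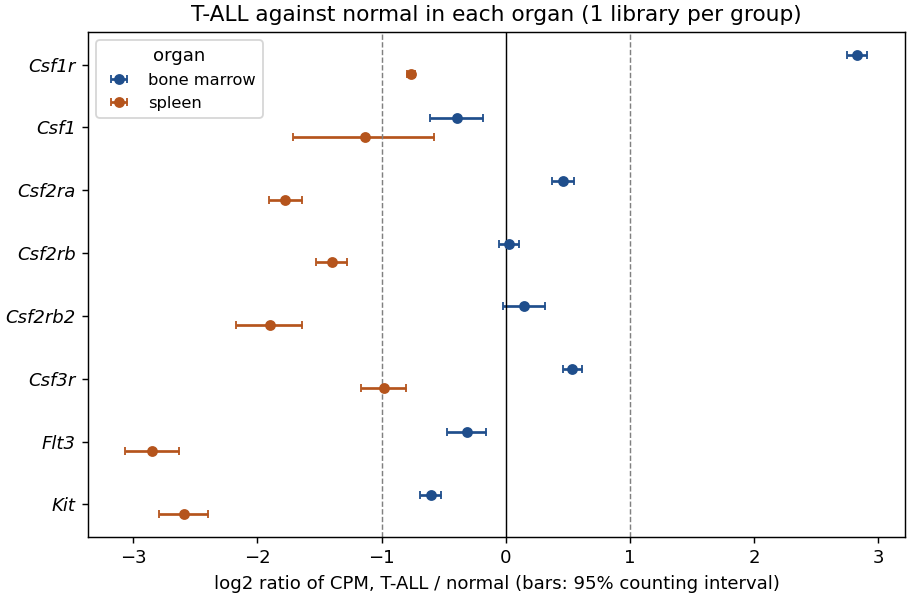
Log2 ratio of CPM, T-ALL over normal (x axis), for each gene in bone marrow and in spleen, with 95% counting intervals as bars and dashed lines at 2-fold. Csf1r in marrow, at 7.11-fold, is the only point to the right of the upper line, and the spleen points all lie below 0.

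Between the normal organs 2 genes were higher in spleen (Csf1r and Flt3) and 2 lower (Csf1 and Csf3r), against 16.1% and 14.0% of all measured genes. Between the T-ALL organs 0 genes were higher in spleen and 7 were lower, against 5.44% and 11.0%, and Csf1r alone was above its marrow level. The median log2 difference of the 8 genes was -0.05 in the normal pair and -1.92 in the T-ALL pair, against -0.04 and 0.01 over all measured genes.

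The order of the receptors within a library differed as well. In normal marrow Csf2ra led at 99.3 RPKM, followed by Csf3r at 62.3, Kit at 54.2, Csf2rb at 51.4, Csf1r at 34.5, Flt3 at 21.3 and Csf2rb2 at 12.3 RPKM. Csf1r led in the other 3 libraries, at 242 RPKM in T-ALL marrow, 620.5 RPKM in normal spleen and 370 RPKM in T-ALL spleen, with Csf2ra next in each. Csf1 was the lowest of the 8 genes in every library. The counting intervals of neighbours in the order overlapped for Kit and Csf2rb and for Csf2rb2 and Csf1 in normal marrow, for Flt3 and Csf2rb in normal spleen, and for Flt3 and Kit in T-ALL spleen.

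Csf1r took 10.3% of the summed RPKM of the 7 receptor genes in normal marrow, 41.5% in T-ALL marrow, 69.9% in normal spleen and 82.9% in T-ALL spleen. Its share was thus largest in T-ALL spleen although its level was larger in normal spleen, since the summed RPKM was 446 in the former and 888 in the latter. Kit went from 16.2% in normal marrow to 1.13% in T-ALL spleen, and Csf3r from 18.6% to 2.45%. The RPKM ratio of Csf1r to Kit was 0.637 (0.596 to 0.681) in normal marrow, 6.89 (6.55 to 7.26) in T-ALL marrow, 20.7 (19.6 to 21.9) in normal spleen and 73.5 (64.7 to 83.8) in T-ALL spleen.

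**Figure D4:**
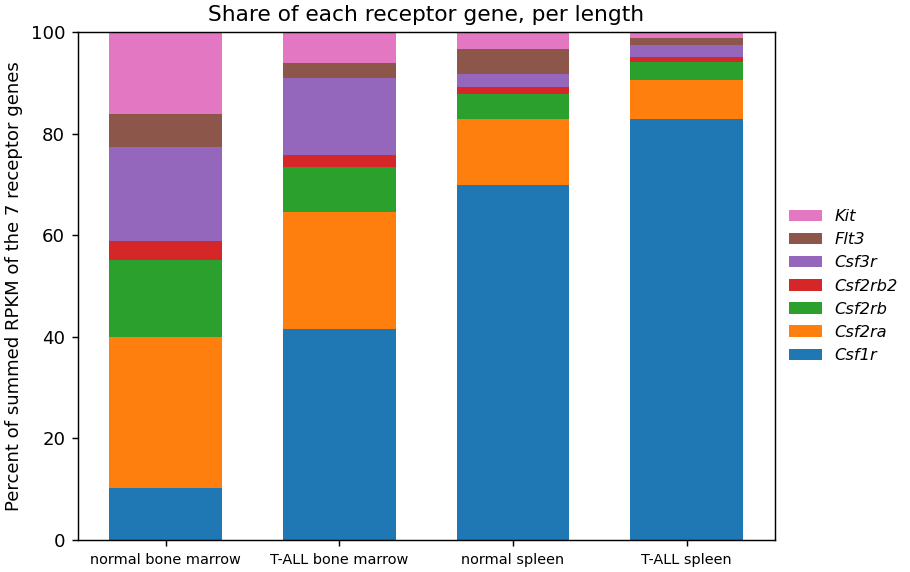
Percent of the summed RPKM of the 7 receptor genes (y axis) taken by each gene, 1 stacked bar per library. The Csf1r segment takes 10.3% in normal marrow and 82.9% in T-ALL spleen, and the Kit and Csf3r segments are narrower in both spleens than in both marrows.

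Most other ligands of these receptors were scarcely read. Il34, Il3 and Il5 had no line in any table, Csf2 had 2, 2, 1 and 0 reads in normal marrow, T-ALL marrow, normal spleen and T-ALL spleen, and Csf3 had 1 read, in normal spleen. Flt3l, the FLT3 ligand, was at 12.1, 10.7, 25.2 and 9.64 CPM and was 2.61-fold lower in T-ALL spleen (2.03 to 3.38). Kitl, the KIT ligand, was at 1.01, 8.16, 14.3 and 10.2 CPM in the same order. Its marrow pair stayed under 10 CPM, with 10 reads in normal and 76 reads in T-ALL marrow, a ratio of 8.04 (4.14 to 17.4).

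Among related receptors, Pdgfrb, the neighbour of Csf1r on the chromosome, was at 35.2 and 31.9 CPM in normal and T-ALL marrow and at 3.91 and 4.22 CPM in the spleens. Its order of organs was the reverse of that of Csf1r. Pdgfra, the neighbour of Kit, had 1 read in all 4 libraries together. Il3ra, the IL-3 chain that pairs with either beta chain, was at 43.0, 31.9, 24.2 and 16.6 CPM in normal marrow, T-ALL marrow, normal spleen and T-ALL spleen. Il5ra was at 5.48, 7.19, 14.0 and 6.50 CPM. Of the 6 related receptors, 4 were measured in marrow with 0 higher or lower in T-ALL. In spleen 3 were measured and 1 was lower, Epor, the erythropoietin receptor, at 2.12-fold (1.64 to 2.76). Over all measured genes, 8.01% were higher and 1.03% lower in marrow, and 10.3% and 11.0% in spleen.

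Transcription factors known to act on genes of this kind passed 2-fold more often between the organs than between T-ALL and normal. Of 13 factors measured in marrow, 1 was higher in T-ALL and 1 lower, against 8.01% and 1.03% of all measured genes. The median log2 difference was -0.27. Cebpb was 4.18-fold higher (3.83 to 4.56) and Cebpe, a factor of granulocytes, 2.04-fold lower (1.88 to 2.20). In spleen the median was -0.66, and 1 of 10 was higher and 3 lower, against 10.3% and 11.0% of all measured genes. Myb was the higher one, at 5.81-fold (5.25 to 6.44). The lower ones were Cebpa at 2.49-fold (2.10 to 2.96), Spi1 at 2.21-fold (2.07 to 2.36) and Irf8 at 2.12-fold (2.01 to 2.24). Spi1 encodes PU.1, the master factor of myeloid cells, and stood at 251, 316, 306 and 139 CPM in normal marrow, T-ALL marrow, normal spleen and T-ALL spleen. That order of libraries is also the order of Csf2ra and of Csf2rb2, although 62.7 and 62.3 CPM of Csf2rb2 nearly tie. It is not the order of Csf2rb, and T-ALL spleen was lowest for every one of the 8 genes but Csf1r. A link of Spi1 to these genes was not tested. Between the normal organs 7 of 13 factors were lower in spleen and 2 higher, against 14.0% and 16.1% of all measured genes. Between the T-ALL organs 8 of 13 were lower and 0 higher, against 11.0% and 5.44%. The log2 differences of Cebpe were -5.74 and -6.03, and those of Gata2, a factor of progenitors and mast cells, -4.43 and -4.79.

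PU.1 and C/EBP factors are known to act at the promoters of Csf2ra and Csf3r, so the short sites found there are shown. Windows of 250 bases before to 50 after a start were taken from RefSeq (GRCm38.p6), which held 6 of the 8 genes and lacked Csf1r and Csf2rb. GAGGAA, the core of a PU.1 site, was searched on both strands and found in 4 of the 6 (Csf2ra, Csf2rb2, Csf3r and Kit), as in 28.3% of all 32851 windows. GCAAT, part of a C/EBP site, was likewise found in 3 of the 6, against 26.4% of all windows, and AGATAA, which factors of the GATA family bind, in 0 of the 6, against 11.2%. Each site is printed with 30 bases and the match in capitals.
Csf2ra, chr19:61228412-61228441, minus strand: cctgcagatGAGGAAGAGGAAgcgggagac
Csf3r, chr4:126024564-126024593, plus strand: ccttcctgaGAGGAAggggctgtctatgtc
Csf3r, chr4:126024641-126024670, plus strand: gaaggtgtcGCAATtctgggtcccccccac

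The Csf2ra window held 2 adjacent, not overlapping copies of GAGGAA, which began 14 and 8 bases before the start. The copy in Csf3r began 86 bases before its start, and GCAAT 9 bases before. All 3 printed stretches overlap an exon of the same gene in GENCODE M21. A match is a description of letters and not a bound site, and no binding was measured here. Windows of Flt3 and Csf1 held none of the 3 motifs.

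Downstream of the receptors, few kinases and adaptors passed 2-fold. In the JAK-STAT arm, 2 of 11 measured genes were higher and 1 lower in T-ALL marrow, with a median log2 difference of 0.17. Over all measured genes, 8.01% were higher and 1.03% lower in that pair. Socs3, a feedback inhibitor, was 3.23-fold higher (2.79 to 3.76), the kinase Lyn 2.26-fold higher (2.14 to 2.39) and Socs2 3.52-fold lower (2.38 to 5.34). In spleen 0 of 11 were higher and 2 lower (10.3% and 11.0% of all measured genes), with a median of -0.10. Jak2, the kinase bound to the common beta chain, was 2.61-fold lower (2.44 to 2.80), and Socs2 was 2.60-fold lower (2.01 to 3.39). Stat5a was at 94.1, 84.7, 70.9 and 83.5 CPM and Stat5b at 157, 217, 185 and 172 CPM in normal marrow, T-ALL marrow, normal spleen and T-ALL spleen.

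Of the 16 kinases and adaptors, 15 were measured in marrow. There 2 were higher and 0 lower (8.01% and 1.03% of all measured genes), with a median of 0.07. Fgr, a Src family kinase, was 2.66-fold higher (2.49 to 2.84) and Tyrobp, an adaptor of myeloid receptors also known as DAP12, 2.26-fold higher (2.15 to 2.39). In spleen 0 of 16 were higher and 3 lower (10.3% and 11.0% of all measured genes), with a median of -0.71. The lower ones were Tyrobp at 2.41-fold (2.28 to 2.56), the phospholipase Plcg2 at 2.36-fold (2.22 to 2.52) and the kinase subunit Pik3cd at 2.01-fold (1.92 to 2.10). Of 9 inhibitors of signalling, 1 was higher and 0 lower in T-ALL marrow, against the same 8.01% and 1.03%. The higher one was Sla2, which is also an adaptor of T cells, at 2.50-fold (1.76 to 3.59). In spleen 1 of 9 was higher and 2 were lower, against the same 10.3% and 11.0%. Sla2 was 2.97-fold higher there (2.26 to 3.95), and Dok1 and Sh2b3 were lower, at 2.38-fold (2.09 to 2.73) and 2.30-fold (2.09 to 2.54).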

How the data were processed

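RNA sequencing libraries of sorted macrophages, 1 for each of 4 groups, were grouped by their titles. Per the file headers, each table gives the deposited counts of uniquely mapped reads, gene length, the percent of that length covered by reads (the deposited coverage) and the authors' RPKM, which scales reads to gene length and library total. Deposited counts summed to the total in each header, and RPKM was recomputed to within 9.2e-06%. The sources used here do not give the aligner, counting rule, strand, build or annotation. Genes with no line were set to 0. Spreadsheet dates in 23 symbols were restored through the Gene ID, and Spi1 and Siglecf, listed under older symbols, were matched through it.

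CPM used library sizes from TMM in edgeR 4.0.16 under R 4.3.3. No count model was run, because each group has 1 library and a fit of organ and condition together would assume the same difference in both organs. The size rule was 2-fold on log2(CPM + 1) with a minimum of 10 CPM. Intervals are exact binomial (folds, ratios) or exact Poisson (order of genes) at 95%. Named genes are the 8 members, all ligands and related receptors, per pathway list and comparison up to 3 genes past the rule (or the one with the highest level), and the 3 genes nearest to each member by profile. Predicted and clone-named genes and the members were left out of that ranking by profile. S100a9, Cpa3, Cd34 and Zbtb46 are defining markers beside a member. Ddx3y, Xist, Mertk, Lyz2, Itgam, Siglech, Bst2, Sox4, Stat5a and Stat5b were chosen after their values were seen. Members and lists were chosen with earlier results of these data known. Intervals came from scipy 1.17.1 and tables from pandas 2.3.3 with numpy 2.4.6, under Python 3.11.15, and plots from matplotlib 3.10.9. Alternatives were scaling by totals or by median ratios, a pseudocount of 0.1 or 5, a minimum of 1 or 50 CPM or none, a threshold of 1.5-fold or 4-fold, RPKM with a minimum of 5 RPKM, and the summed beta chains.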

Additional observations from a re-analysis of the deposited data

Results flagged for a closer look

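For 3 genes the T-ALL and normal libraries differed in opposite directions in the organs, with both counting intervals off a ratio of 1. The log2 difference in spleen minus that in bone marrow was -3.58 for Csf1r, -2.22 for Csf2ra and -1.50 for Csf3r. Each value rests on 1 library per group, and the difference between the organs was not tested.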

How the results depend on the processing

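No paired analysis was possible because the labels carry no replicate numbers that groups share, and a fit blocked by organ, which would assume 1 difference for both organs, was not run. Of the 32 member differences (8 genes in 4 comparisons), none changed sign under the scalings, pseudocounts or RPKM, and scaling moved them by at most 0.05 on the log2 scale. Summing the beta chains turned the sign of 1, Csf2rb2 between the normal organs, from 0.14 to -0.16, which was not a called value. Counts of called members moved in 7 cases. At 1.5-fold, 1 gene was lower in T-ALL marrow and 1 was higher in T-ALL spleen than in T-ALL marrow. At 4-fold, 2 genes were lower in T-ALL spleen than in normal spleen, 3 were lower in T-ALL spleen than in T-ALL marrow, and 1 was higher and 1 lower between the normal organs. A minimum of 50 CPM left 1 lower gene between the normal organs, since Csf1 lies under it. These moves follow from the thresholds themselves. The other 73 counts stayed within 1.5 times. Depth limited Csf1 most, with 40 reads in T-ALL spleen, and the number of libraries limits every comparison.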
